A study of Mus musculus with 46 samples.

Results

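The nuclear hormone receptors described here are 33 genes named in a list, out of 31854 genes in the count table. They were chosen by name and not by their measured values, with earlier results of these data known. They were measured in hypothalamic neurons of male C57BL/6J mice that carried the NuTRAP allele, which places a GFP-tagged L10a ribosomal subunit and an mCherry-tagged nuclear envelope protein behind a loxP-flanked stop. AgRP-IRES-Cre or POMC-IRES-Cre released the stop, giving NuTRAP AgRP and NuTRAP POMC mice, so every group carried the allele and a Cre. NuTRAP AgRP mice were 6 to 11 weeks old, and mice were either fed ad libitum or fasted overnight for 18 to 20 h. Fed and fasted mice received vehicle (PBS), the leptin group was fasted and then injected with 5 mg/kg leptin, and all were killed 3 h later. Ribosome-bound RNA from AgRP neurons came from 3 fed, 4 fasted and 4 leptin samples, each of 4 pooled arcuate nuclei, and RNA from POMC neurons came from 2 samples per state. Open chromatin was profiled by ATAC-seq, which counts fragments cut by a transposase, in nuclei of AgRP neurons from pools of 4 mice (2 libraries per state) and in GFP-positive against GFP-negative nuclei (2 libraries each). A tagged sample is an average over many cells, so fewer cells of a type and less RNA per cell cannot be told apart.

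Nuclear receptors are transcription factors, most of which change their activity when a small lipophilic ligand enters a pocket of the protein. Thyroid hormone, retinoic acid, vitamin D, oxysterol and fatty acid receptors usually bind DNA as pairs with a retinoid X receptor at repeats of the core motif AGGTCA, while steroid receptors pair with themselves, and orphan members have no agreed hormone. In the arcuate nucleus, estrogen receptor alpha and thyroid hormone receptors are known for coupling reproduction and energy expenditure to feeding circuits, and AgRP neurons are the hunger-promoting cells of that circuit, opposed by POMC neurons.

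RNA libraries held 25581041 to 54511107 counts and ATAC libraries 8263234 to 17190963 counts, with fed nuclei replicate 1 the shallowest. The Cre lines matched their labels, with the sum of *Agrp* and *Npy* at 680 to 5235 CPM (counts scaled to a common library total with TMM factors) in AgRP libraries and 16.3 to 79.2 CPM in POMC libraries. The sum of *Pomc* and *Cartpt* ran from 53.5 to 96.0 CPM in AgRP and from 1491 to 2842 CPM in POMC libraries. Replicate 4 of every AgRP state and replicate 2 of every POMC state stood apart. The sum of 6 astrocyte markers was 20987 to 26730 CPM in AgRP replicate 4 against 2779 to 4459 CPM in the other AgRP libraries, and 24311 to 27930 CPM in POMC replicate 2 against 5864 to 6821 CPM in POMC replicate 1. Most of that sum was *Slc1a2*, a glutamate transporter, and 4 of the 6 markers were higher in every AgRP replicate 4 library and 5 of 6 in every POMC replicate 2 library, while *Gfap* did not separate them and none of the 6 was at 0. Summed oligodendrocyte markers were 752 to 831 CPM against 481 to 748 CPM in AgRP libraries, where only 2 of 6 (*Mbp* and *Mobp*) were higher in every replicate 4 library. In POMC libraries the sums were 784 to 997 CPM against 453 to 552 CPM, and all 6 were higher. In POMC replicate 2 summed microglial markers were also higher (42.6 to 54.1 against 24.7 to 40.7 CPM), with 2 of 6 markers (*Cx3cr1* and *Csf1r*) higher in every library. The POMC markers (1491 to 1747 against 2003 to 2842 CPM) were lower there. So were the kisspeptin neuron markers *Tac2* and *Pdyn* (239.9 to 271 against 366 to 508 CPM).

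The same libraries differed in their receptors. Of the 32 receptors tested, 13 lay higher in all AgRP replicate 4 libraries than in every other AgRP library, where 14.6% of all genes tested did so. In POMC replicate 2 the count was 18 of 32, against 26.7% of all genes, and 11 receptors did so in both lines, against 12.5% of all genes. The mean CPM of *Rorb*, an orphan receptor of sensory circuits and cortical layers, was 3.44 times higher in AgRP replicate 4 and 3.17 times higher in POMC replicate 2. *Ppara*, the fatty acid receptor of fasting liver, stood at 2.77 and 2.35 times, *Thrb* at 2.37 and 1.73 times, and *Pgr* at 2.12 and 1.66 times. Because these libraries share their state with the others, receptors called among AgRP states are given with and without replicate 4. The part of the higher marker transcripts in the receptor values was not tested.

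**Figure D1:**
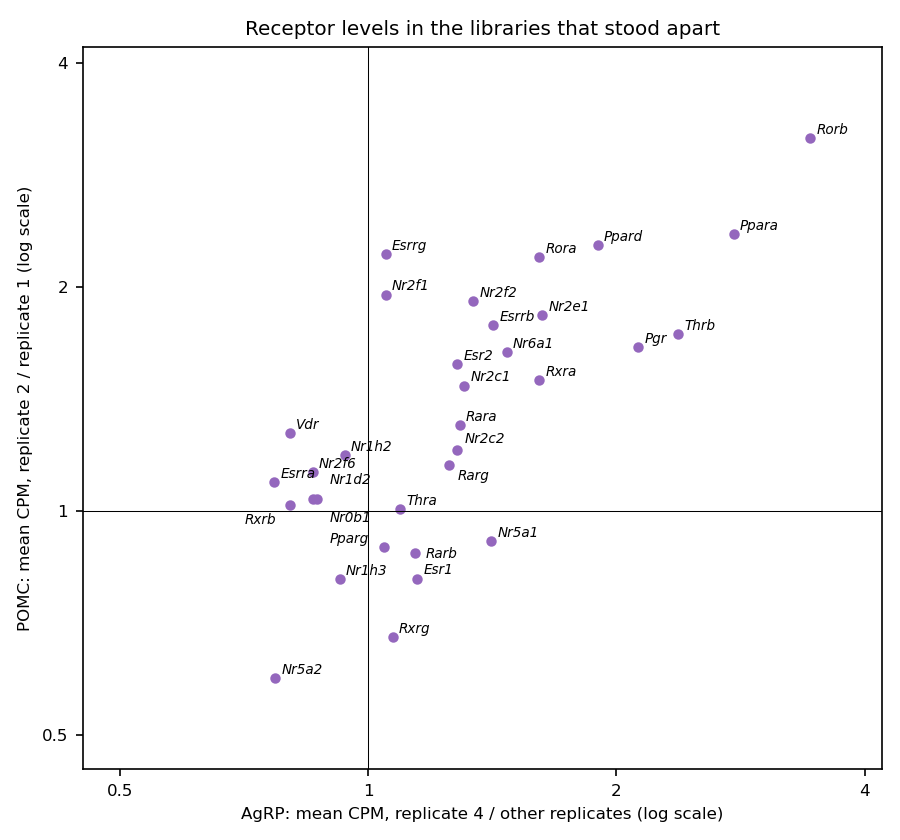
Ratio of mean CPM in AgRP replicate 4 to the other AgRP libraries (x axis, log scale) against the ratio in POMC replicate 2 to POMC replicate 1 (y axis, log scale), with each point a receptor. *Rorb* sits farthest to the upper right at 3.44 and 3.17, and *Rxrb*, *Esrra* and *Nr2f6* lie left of 1 on the x axis.

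Per length of transcript, the receptors differed widely in level in AgRP neurons. *Thra*, the main thyroid hormone receptor of brain, was the highest at a median of 100.2 RPKM (CPM per kilobase, here computed from the counts and the exon length; 76.5 to 119 over 11 libraries). *Nr1d2*, which encodes the haem-binding repressor REV-ERB beta of the circadian clock, came next at 33.8 RPKM (25.8 to 52.4), and these ranges did not overlap. *Nr2c2*, an orphan repressor, had a median of 17.1 RPKM. Of its exon bases, 31.2% are shared with *Gm44249* and *Mrps25* together, both on the other strand. The libraries kept no strand, and the part of those genes in its level was not tested. Next came the retinoid X receptors *Rxra* at 13.9 RPKM and *Rxrb* at 13.8 RPKM, which could not be ordered. *Rorb* followed with a median of 10.8 RPKM and a range of 8.76 to 41.3 RPKM set by replicate 4.

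Sex steroid receptors sat lower. *Pgr*, the progesterone receptor, had a median of 10.4 RPKM in AgRP and 20.6 RPKM in POMC libraries, and *Esr1*, estrogen receptor alpha, 3.38 and 8.14 RPKM. *Esr2*, estrogen receptor beta, was near the bottom in AgRP libraries at 0.455 RPKM, beside *Vdr* at 0.467 RPKM, and *Pparg*, the adipocyte fatty acid receptor, was lowest in both lines at 0.170 and 0.104 RPKM. *Pparg* did not pass the filter of a mean above 1 CPM in any comparison, and *Nr1h3*, an oxysterol receptor, missed it among POMC libraries and among fasted libraries of both lines.

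Fasting moved few receptors in AgRP neurons, and *Nr0b1* and *Vdr* moved most. Of 32 receptors tested by edgeR's quasi-likelihood test, 2 passed an adjusted p of 0.05 and a log2 fold change of 0.5 between fasted and fed, which is 6.25% of them against 3.89% of all genes tested. Leptin against fasted called 1 receptor, *Nr0b1*, against 1.8% of all genes, and leptin against fed called 3, against 5.4%. Members' shares near these backgrounds carry no result about the family, and the median log2 fold change from fed to fasted was -0.09 over receptors and 0.02 over all genes. Same-numbered AgRP libraries deviated together, so a fit with the replicate number as a block was also made. With that replicate block, 6, 2 and 4 receptors were called in the 3 comparisons, against 6.99%, 2.85% and 8.5% of all genes. The 3 comparisons share libraries pairwise and are not independent.

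*Nr0b1* encodes DAX1, a receptor without the usual DNA-binding domain that represses the steroidogenic factor SF1, the product of *Nr5a1*. The gene lies at chrX:86191764-86195947 on the plus strand (GRCm38). Its level was 4.22, 4.53 and 3.42 CPM in fed replicates 1, 3 and 4, and 2.32, 1.26, 1.42 and 1.39 CPM in fasted replicates 1 to 4. It was 5.54, 2.96, 3.42 and 3.53 CPM in leptin replicates 1 to 4. Every fasted library was below every fed and every leptin library, while fed and leptin libraries overlapped. From fed to fasted it fell by 1.35 on the log2 scale (SE 0.252, adjusted p = 0.0118 by edgeR), a call kept without each library in turn. From fasted to leptin it rose by 1.27 (SE 0.237, adjusted p = 0.0168), a call lost without fasted replicate 2 (adjusted p = 0.0580) or fasted replicate 3 (adjusted p = 0.0690). Leptin against fed it differed by -0.07, with a 95% interval of -0.61 to 0.47. Without replicate 4 in any state the changes were -1.42 (adjusted p = 0.0265) and 1.25 (adjusted p = 0.0530). Over 17 other settings the adjusted p lay between 4.6e-05 and 0.0494 for fasting, and between 4.66e-05 and 0.0690 for leptin against fasted.

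*Vdr* encodes the vitamin D receptor and lies at chr15:97854425-97910630 on the minus strand. It stood at 1.18, 1.03 and 1.10 CPM in fed replicates 1, 3 and 4, and at 3.50, 2.34, 2.57 and 2.15 CPM in fasted replicates 1 to 4. Leptin replicates 1 to 4 had 1.42, 2.04, 3.26 and 1.97 CPM. Every fasted and every leptin library was above every fed library, and fasted and leptin libraries overlapped. Fasted against fed, *Vdr* rose by 1.26 (SE 0.276, adjusted p = 0.0246), and leptin against fed by 0.99 (SE 0.275, adjusted p = 0.0484). Leptin against fasted it differed by -0.26 with no call. These libraries held only 27 to 179 *Vdr* counts, and the fasting call was lost without any of the 3 fed libraries, fasted replicate 1 or fasted replicate 3. The leptin against fed call held only without fasted replicate 4 or leptin replicate 1, and without replicate 4 in all states the 2 changes were 1.32 (adjusted p = 0.0537) and 1.02 (adjusted p = 0.0959). Over 17 other settings the adjusted p ranged from 0.0014 to 0.0933 and from 0.0160 to 0.144.

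*Rarb*, the retinoic acid receptor beta, is itself a well-known target of retinoic acid. It lies at chr14:16430839-16819156 on the minus strand. Its level was 11.2, 9.28 and 12.1 CPM in fed replicates 1, 3 and 4, then 7.48, 7.17, 6.19 and 8.74 CPM in fasted and 7.79, 6.43, 6.35 and 5.68 CPM in leptin replicates 1 to 4. All 8 fasted and leptin libraries were below all 3 fed libraries. Leptin against fed, *Rarb* fell by 0.72 (SE 0.150, adjusted p = 0.0160), a call lost without fed replicate 1 (adjusted p = 0.0638) or fed replicate 4 (adjusted p = 0.0694) and kept without replicate 4 in all states (-0.60, adjusted p = 0.0339). Fasted against fed it differed by -0.54 (SE 0.150, adjusted p = 0.0640), which became a call with the replicate block (-0.53, adjusted p = 0.00943) and without replicate 4 (-0.57, adjusted p = 0.0466). Over 17 other settings the adjusted p ran from 0.000448 to 0.0694 for leptin against fed and from 0.00943 to 0.220 for fasted against fed. Of its exon bases, 38.4% are shared with *Top2b* and *Gm48162* together, both on the other strand, and the library kit kept no strand. *Gm48162* was not analysed here, and *Top2b* differed in the other direction, by 0.23 and 0.25, without a call in either comparison.

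*Nr1d2* lies at chr14:18204054-18239127 on the minus strand. Its level was 214, 261 and 205 CPM in fed replicates 1, 3 and 4, then 136, 183, 175 and 128 CPM in fasted and 149.5, 168, 163 and 132 CPM in leptin replicates 1 to 4. The lowest fed library was above the highest fasted and the highest leptin library. Leptin against fed, it fell by 0.56 (SE 0.142, adjusted p = 0.0357), a call lost without any of the 3 fed or the 4 leptin libraries and kept without replicate 4 in all states (-0.58, adjusted p = 0.0299). Fasted against fed it differed by -0.53 (SE 0.142, adjusted p = 0.0557), with calls under the replicate block (-0.60, adjusted p = 3.83e-05) and without replicate 4 (-0.54, adjusted p = 0.0468). The adjusted p over 17 other settings ranged from 2.81e-05 to 0.132 for leptin against fed and from 3.83e-05 to 0.181 for fasted against fed.

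The promoter windows of *Rarb*, *Nr1d2* and *Nr0b1* are shown because these genes changed in AgRP neurons and their windows hold letters that nuclear receptors are known to read. They are RefSeq windows of 250 bases before to 50 after the start (GRCm38.p6), at chr14:16575427-16575726 (minus strand), chr14:18239057-18239356 (minus strand) and chrX:86191525-86191824 (plus strand). Capitals mark, in *Rarb*, a direct repeat of GTTCA with any 6 bases between, the spacing at which RAR and RXR pairs are known to bind, and AGGTCA in the others, all searched on both strands.
Rarb: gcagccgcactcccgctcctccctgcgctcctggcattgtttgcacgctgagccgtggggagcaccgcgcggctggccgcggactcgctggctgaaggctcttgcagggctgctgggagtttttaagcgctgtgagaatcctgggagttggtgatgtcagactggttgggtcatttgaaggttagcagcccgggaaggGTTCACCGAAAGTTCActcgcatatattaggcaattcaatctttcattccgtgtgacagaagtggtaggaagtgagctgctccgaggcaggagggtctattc
Nr1d2: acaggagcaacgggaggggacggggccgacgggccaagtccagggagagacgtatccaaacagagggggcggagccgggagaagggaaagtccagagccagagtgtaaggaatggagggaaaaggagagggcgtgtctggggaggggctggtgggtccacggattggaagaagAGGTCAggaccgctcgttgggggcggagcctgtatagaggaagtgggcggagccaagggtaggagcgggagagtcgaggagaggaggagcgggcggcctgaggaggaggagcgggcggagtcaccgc
Nr0b1: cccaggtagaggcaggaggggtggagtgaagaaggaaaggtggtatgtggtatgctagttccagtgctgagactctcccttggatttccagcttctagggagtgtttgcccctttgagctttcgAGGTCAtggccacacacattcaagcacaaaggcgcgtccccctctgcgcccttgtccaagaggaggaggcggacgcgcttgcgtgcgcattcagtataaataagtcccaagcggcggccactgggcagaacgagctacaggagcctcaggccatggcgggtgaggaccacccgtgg

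The direct repeat occurs in 0.0761% of 32851 promoters and AGGTCA in 16.3%. The printed windows were chosen for holding these letters, so the shares do not test their matches. RAR and RXR pairs are known to bind the repeat and *Rarb* is a well-known target, so its match was foreseeable. The *Rarb* repeat also contains TTCNNNGAA, the letters STAT factors are known to read downstream of the leptin receptor, which 8.3% of promoters hold. Of 31 receptor genes with a window, 6 (19.4%) held AGGTCA, 3 (9.7%) held TTCNNNGAA and 1 held the repeat. The *Vdr* window, not printed, held none of them, although *Vdr* RNA was also called in AgRP neurons. A match is a run of letters and was not tested as a binding site. For 15 receptor genes the table lists several windows, of which the first was taken.

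The other receptors described here, *Rxrg*, *Esr2* and *Esrrb*, were not called without the replicate block in the fit of all libraries. *Rxrg*, the retinoid X receptor gamma and a partner for the other families, stood at 20.5, 18.8 and 22.8 CPM in fed, 16.4, 18.3, 15.1 and 14.9 CPM in fasted and 12.7, 15.9, 14.8 and 15.5 CPM in leptin libraries. All fed libraries were above all others. Leptin against fed it differed by -0.48 (SE 0.117, adjusted p = 0.0308, under the fold threshold), and by -0.53 with the replicate block (adjusted p = 0.0014, over 17 settings 0.0014 to 0.117). Without replicate 4 in all states it differed by -0.45 (adjusted p = 0.0531).

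*Esr2* stood at 1.53, 1.01 and 2.08 CPM in fed, 0.935, 1.05, 0.669 and 1.11 CPM in fasted and 2.22, 1.73, 1.73 and 2.03 CPM in leptin libraries. Every leptin library was above every fasted one, and fed libraries overlapped both. Leptin against fasted it differed by 1.03 (SE 0.239, adjusted p = 0.0530) and passed with the replicate block (1.04, adjusted p = 0.00329), without replicate 4 in all states (1.08, adjusted p = 0.0464), and without fed replicate 3 or fed replicate 4. Fasted against fed it differed by -0.69 (adjusted p = 0.174) and by -0.65 with the block (adjusted p = 0.0447). Over 17 other settings the adjusted p ranged from 0.00329 to 0.164 and from 0.0447 to 0.537.

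*Esrrb*, an estrogen-related orphan receptor, stood at 3.17, 2.49 and 3.26 CPM in fed, 4.83, 3.56, 4.49 and 5.96 CPM in fasted and 4.46, 2.69, 2.35 and 5.68 CPM in leptin libraries. Fasted libraries were all above fed ones and leptin libraries overlapped both. Fasted against fed it differed by 0.67 (SE 0.312, adjusted p = 0.270), and by 0.79 with the block (adjusted p = 0.00761, over 17 settings 0.00761 to 0.458). Without replicate 4 in all states the difference was 0.59 (adjusted p = 0.230).

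**Figure D2:**
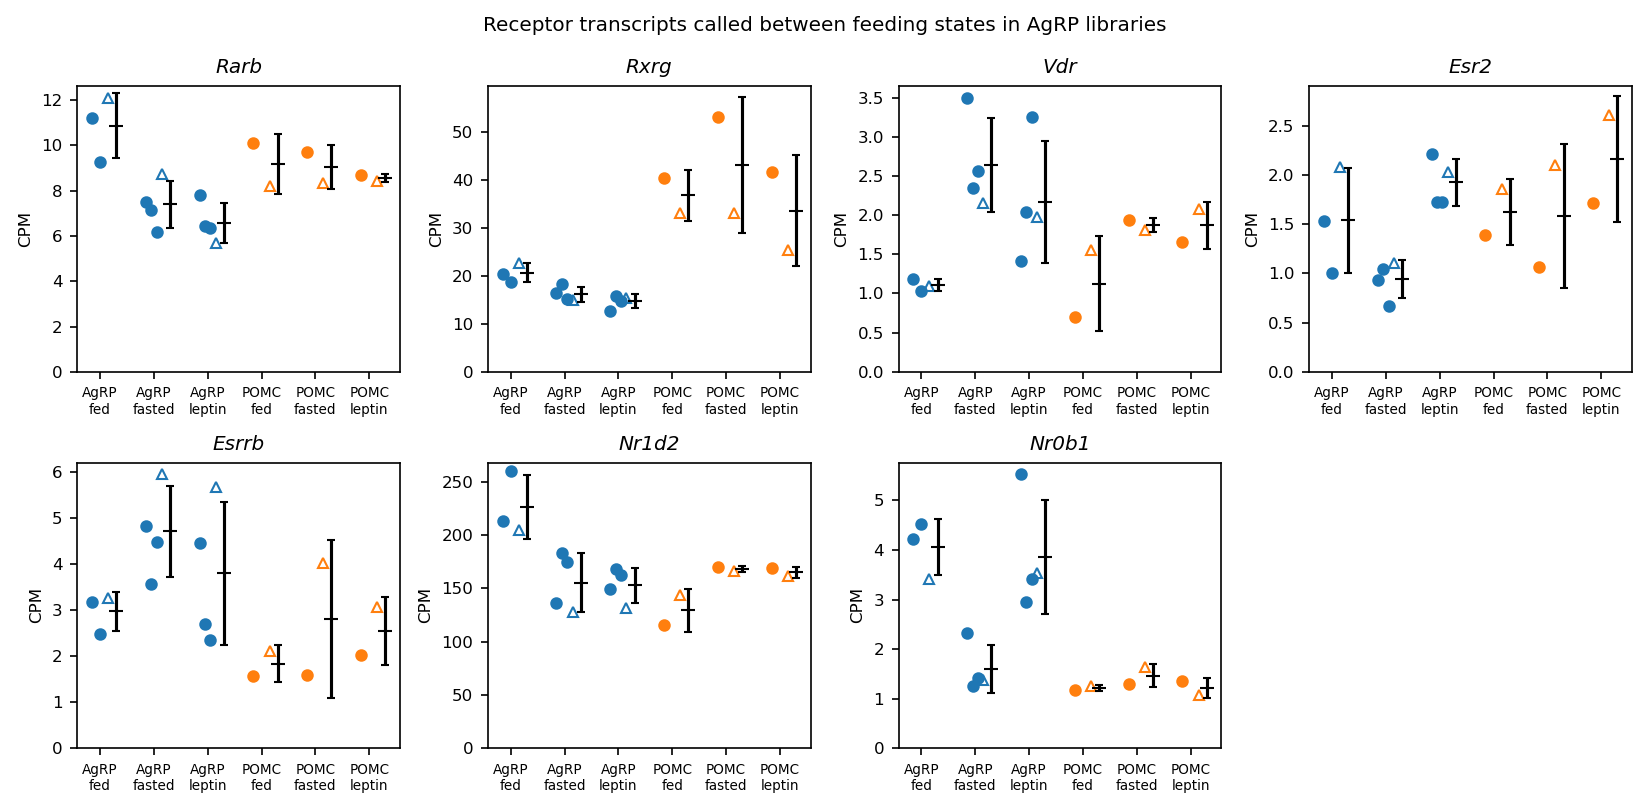
CPM per library (y axis, from 0) of 7 receptors in fed, fasted and leptin libraries of AgRP (blue) and POMC (orange) neurons, with open triangles for AgRP replicate 4 and POMC replicate 2 and black bars for the mean ± SD. In AgRP neurons the 4 fasted *Nr0b1* points, 1.26 to 2.32 CPM, lie below all fed and leptin points, and the 3 fed *Vdr* points, 1.03 to 1.18 CPM, lie below all others.

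The remaining 25 tested receptors were not called in AgRP neurons. Their log2 fold changes ran from -0.29 to 0.29 for fasted against fed, from -0.27 to 0.28 for leptin against fasted and from -0.29 to 0.33 for leptin against fed. They include both thyroid hormone receptors, *Rara* and *Rarg*, *Rxra* and *Rxrb*, *Ppara* and *Ppard*, the oxysterol receptors *Nr1h2* and *Nr1h3*, *Esr1* and *Pgr*, *Esrra* and *Esrrg*, *Rora* and *Rorb*, and all orphans of the *Nr2*, *Nr5* and *Nr6* groups. *Esr1* stood at 31.9 to 33.2 CPM in fed, 26.1 to 36.2 CPM in fasted and 23.5 to 34.1 CPM in leptin libraries, and these ranges overlapped.

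**Figure D3:**
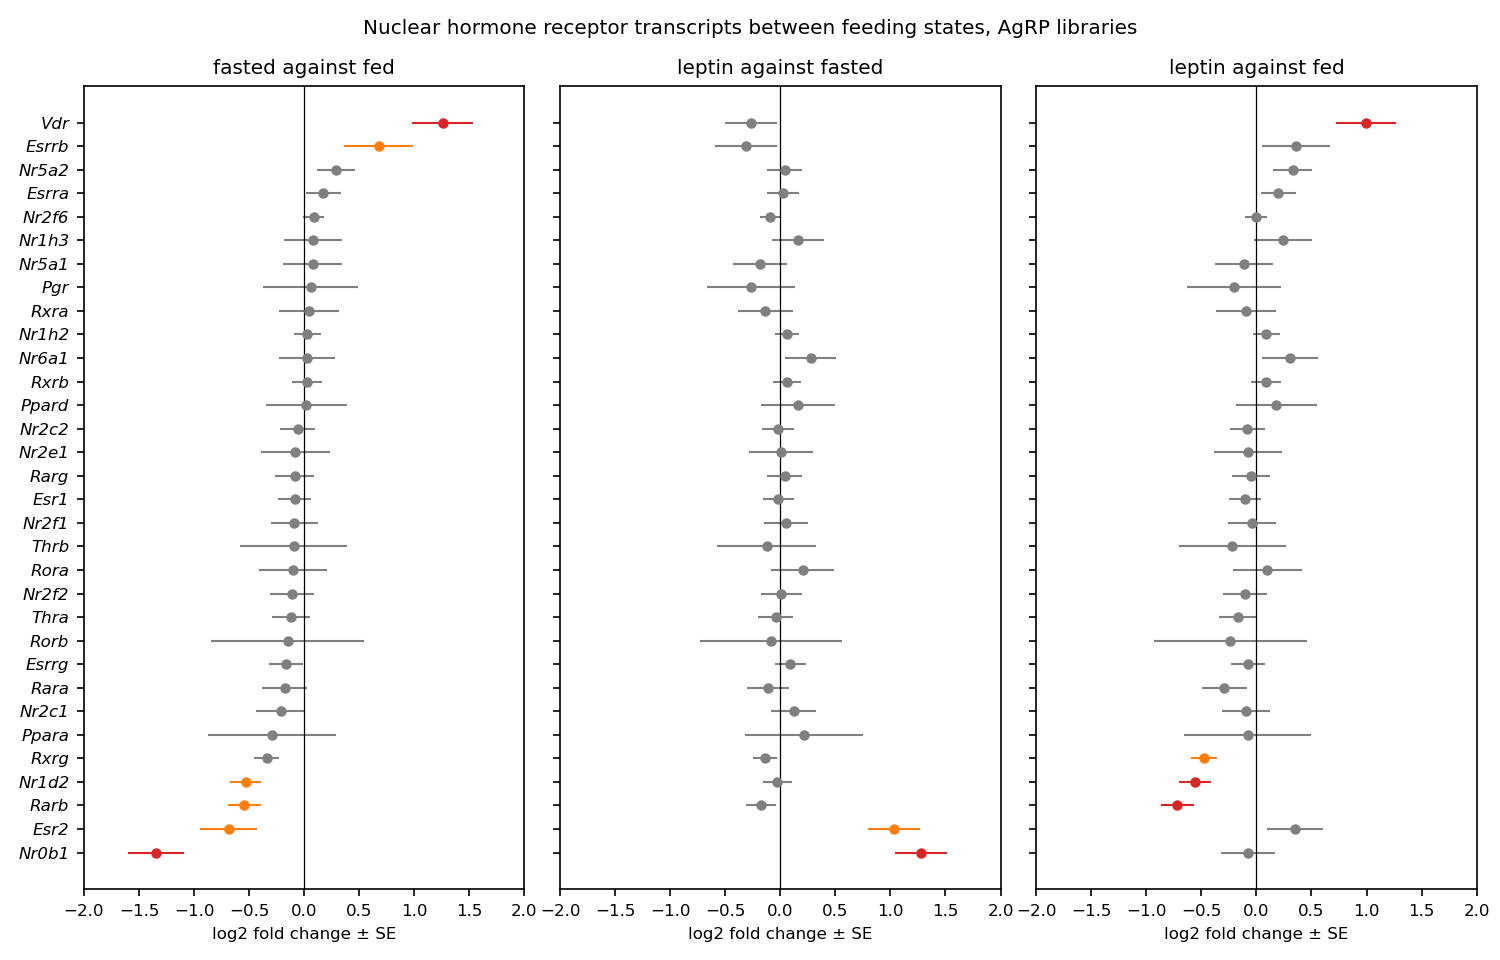
Log2 fold change ± SE (x axis) of 32 receptors in AgRP neurons for fasted against fed, leptin against fasted and leptin against fed, with red for calls, orange for calls made only with the replicate block and grey for the rest. *Nr0b1* lies at -1.35, 1.27 and -0.07, and *Vdr* at 1.26, -0.26 and 0.99.

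Several genes that make or carry receptor ligands also moved in AgRP neurons. Of 33 genes of ligand supply, 23 were tested, 2 rose with fasting, 1 rose from fasted to leptin and 4 were higher in leptin than in fed libraries, with none lower. The share of all genes called was 3.89%, 1.8% and 5.4% in these comparisons. The gene lists were made with earlier results of these data known, so such counts are descriptive and do not test a list. *Rdh10*, which oxidises retinol to retinal in the synthesis of retinoic acid, had 11.3, 13.1 and 12.4 CPM in fed, 15.2, 12.6, 12.8 and 12.8 CPM in fasted and 93.3, 70.8, 84.8 and 57.2 CPM in leptin libraries. The lowest leptin library was several-fold above every other AgRP library, and *Rdh10* rose by 2.51 from fasted to leptin (SE 0.135, adjusted p = 9.16e-06 by edgeR). In POMC neurons it ran from 11.2 to 15.6 CPM over all 6 libraries.

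*Rbp4*, a retinol carrier, had 14.5, 21.1 and 14.6 CPM in fed, 69.8, 47.8, 50.1 and 34.6 CPM in fasted and 45.02, 28.3, 55.9 and 27.0 CPM in leptin libraries. Fed libraries were below all others, and *Rbp4* rose by 1.60 with fasting (adjusted p = 0.0104). *Hsd17b12*, of steroid and fatty acid metabolism, rose by 0.60 with fasting (adjusted p = 0.0150).

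All 25 coregulators, which bind receptors and open or close chromatin, were tested. Fasting raised *Ncoa2*, a coactivator, by 0.69 (adjusted p = 0.00491) and *Cited2* by 0.65 (adjusted p = 0.00772), with none lower. That is 8% of the list, against 3.89% of all genes tested, and from fasted to leptin 4% were called, against 1.8%. This list too was made with earlier results of these data known, so its counts are descriptive only. *Ncoa2* ran from 309 to 364 CPM in fed and from 486 to 599.7 CPM in fasted libraries. *Cited2* stood at 20.3 to 25.9 CPM in fed, 31.4 to 37.9 CPM in fasted and 15.3 to 19.8 CPM in leptin libraries, and fell by 0.99 from fasted to leptin (adjusted p = 0.000592).

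Of 28 known target genes of the receptors, 23 were tested and 3 rose with fasting. Of all 13401 genes tested, 521 (3.89%) were called and 376 of those were higher. This list was likewise made with earlier results of these data known, so its count is descriptive only. *Angptl4*, a lipase inhibitor and PPAR target, rose by 1.64 (adjusted p = 0.00211), *Nfil3*, a repressor linked to the clock, by 1.58 (adjusted p = 0.000585), and *Greb1*, an estrogen receptor target, by 1.15 (adjusted p = 0.0161). *Greb1* fell by 1.05 from fasted to leptin (adjusted p = 0.0226), where *Bhlhe41*, a clock repressor, rose by 0.78 (adjusted p = 0.00905). Levels of *Greb1* were 2.20 to 2.95 CPM in fed, 5.44 to 6.34 CPM in fasted and 2.14 to 4.24 CPM in leptin libraries. All fasted libraries were thus the highest for *Greb1*. Of 15 nuclear receptors outside the list, 8 were tested. With fasting 1 of these was called higher and 0 lower, against 3.89% of all genes. From fasted to leptin 1 was called higher and 2 lower, against 1.8% of all genes, and these counts too are descriptive. *Nr4a1*, an immediate-early receptor, rose with fasting by 1.61 (adjusted p = 0.0266) and fell by 1.87 after leptin (adjusted p = 0.0119), and *Nr3c2*, the mineralocorticoid receptor, rose by 1.07 after leptin (adjusted p = 0.00044).

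In POMC neurons 31 receptors were tested and edgeR called 0 in each of the 3 comparisons, where it called 0% of all 13412 genes tested. With the replicate block the count of receptors was also 0, against 0.0224%, 0.0596% and 0.254% of all genes for fasted against fed, leptin against fasted and leptin against fed, and DESeq2 called 0. At an unadjusted p under 0.05 there was 1 receptor for fasted against fed, *Nr1d2* at 0.38 (95% interval 0.01 to 0.75), and 0 in the other comparisons. Of all 13412 genes, 273 did so for fasted against fed, 151 for leptin against fasted and 277 for leptin against fed. *Nr0b1* had 1.17 and 1.27 CPM in fed, 1.30 and 1.63 CPM in fasted and 1.36 and 1.08 CPM in leptin POMC libraries, which overlapped. Its fasting difference was 0.26, with an interval of -0.40 to 0.93. For *Vdr* the difference was 0.74 (-0.30 to 1.78) and for *Rarb* -0.02 (-0.47 to 0.43). With 2 libraries per state the *Vdr* interval holds the AgRP change of 1.26, and the *Nr0b1* interval does not hold the AgRP change of -1.35. The list genes of ligand supply, coregulators, targets and other receptors also had 0 calls.

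Whether an effect differed between AgRP and POMC neurons was tested by the interaction of line and state in all 17 libraries. No receptor of 32 was called by edgeR for fasting, against 0.156% of all genes, or for leptin against fasted, against 0.0744%. At an unadjusted p under 0.05 there were 3 and 1 receptors, beside 1189 and 380 of all 13435 genes tested. These counts carry no result about the family. DESeq2 called 2 receptors (*Nr1d2* and *Nr0b1*) for fasting and 0 for leptin. With the replicate block within each line, 4 receptors were called for fasting, against 6.23% of all genes, and 1 for leptin, against 0.796%. The fasting effect on *Nr0b1* was lower in AgRP than in POMC neurons by 1.62 (SE 0.418), with adjusted p = 0.148 without and 0.00746 with the block. For *Nr1d2* the difference was -0.92 (SE 0.230, adjusted p = 0.137), and -0.997 with the block (adjusted p = 0.00017). *Rxrg* (-0.60, adjusted p = 0.0229) and *Nr5a2* (0.69, adjusted p = 0.00503) were the others called with the block. For leptin against fasted *Nr0b1* differed by 1.53 (SE 0.412, adjusted p = 0.479), and by 1.53 with the block (adjusted p = 0.0324). The adjusted p over 23 other settings ranged from 0.00746 to 0.603 for fasting on *Nr0b1*, from 0.00017 to 0.642 on *Nr1d2*, and from 0.0324 to 1.00 for leptin on *Nr0b1*.

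Set side by side, AgRP and POMC neurons differed in *Esr1*, *Rxrg*, *Nr5a1*, *Nr5a2* and *Nr0b1*. In fed libraries 3 of 32 receptors were called, against 2.18% of all genes, in fasted libraries 4 of 31, against 7.2%, and in leptin libraries 5 of 32, against 4.68%. Leaving out a POMC library leaves 1 in that state, which is then assumed to vary as the AgRP libraries do, so such a fit is a weak check. The Cre line and the library batch cannot be told apart from the cell type in these comparisons. Replicate numbers do not join samples across lines, so these comparisons were fitted without a block.

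*Esr1* lies at chr10:4611593-5005614 on the plus strand. It stood at 32.2, 31.9 and 33.2 CPM in fed AgRP libraries and at 87.5 and 74.5 CPM in fed POMC libraries. Fasted POMC libraries had 81.6 and 66.6 CPM and leptin POMC libraries 80.9 and 61.7 CPM, each above all AgRP libraries. It was lower in AgRP than in POMC neurons by 1.32 when fed (SE 0.109, adjusted p = 0.00454), by 1.31 when fasted (SE 0.165, adjusted p = 0.00572) and by 1.25 after leptin (SE 0.181, adjusted p = 0.0126). These calls were lost without AgRP fed replicate 1 (adjusted p = 0.0558), POMC fasted replicate 1 (0.0660) and POMC leptin replicate 1 (0.105). Without AgRP replicate 4 and POMC replicate 2 the differences were -1.46, -1.56 and -1.49. *Tac2* and *Pdyn*, markers of kisspeptin neurons, which express *Esr1*, moved the same way. Together they stood at 66.3 to 124 CPM in AgRP and 239.9 to 508 CPM in POMC libraries. *Kiss1* itself had no values here, so the cells were not identified by it. The part of such cells in the *Esr1* result was not tested.

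*Rxrg* had 40.5 and 33.1 CPM in fed, 53.2 and 33.2 CPM in fasted and 41.8 and 25.5 CPM in leptin POMC libraries, each above all AgRP libraries. It was lower in AgRP neurons by 0.83 when fed (SE 0.141, adjusted p = 0.0404), by 1.43 when fasted (SE 0.197, adjusted p = 0.00754) and by 1.19 after leptin (adjusted p = 0.0211). The fasted call was kept without each library in turn. The fed call was lost without any of the 5 fed libraries, and the leptin call without AgRP leptin replicate 1, 2 or 3 or POMC leptin replicate 1. Over 12 other settings the adjusted p reached 0.240 when fed and 0.137 after leptin.

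*Nr5a1* encodes SF1, the factor that defines ventromedial hypothalamic neurons and steroid-making cells, and lies at chr2:38692656-38714542 on the minus strand. AgRP libraries had 12.5, 9.08 and 14.8 CPM in fed, 14.4, 8.46, 11.5 and 16.3 CPM in fasted and 11.6, 10.7, 7.79 and 14.4 CPM in leptin mice. POMC libraries had 22.4 and 24.8, 30.6 and 23.3, and 27.0 and 24.8 CPM in the same states, all above the AgRP libraries. It was lower in AgRP neurons by 1.11 when fasted (SE 0.257, adjusted p = 0.0458) and by 1.22 after leptin (SE 0.223, adjusted p = 0.0257), and differed by -0.97 when fed (adjusted p = 0.0875). Leaving out 1 library kept the fasted call only without AgRP fasted replicate 4 and the leptin call only without AgRP leptin replicate 3 or 4, with adjusted p up to 0.191 and 0.155. Of 4 ventromedial markers, 2 were higher in every POMC library. *Fezf1* stood at 6.45 to 13.2 CPM in AgRP and 13.7 to 17.4 CPM in POMC libraries, and *Sox14* at 1.14 to 2.32 CPM and 3.09 to 3.86 CPM. The sum of the 4 overlapped, at 139.9 to 629 CPM in AgRP and 124 to 213 CPM in POMC libraries, and its highest values were those of *Nptx2* in leptin AgRP libraries (215 to 575 CPM). No marker was at 0, and their part in the *Nr5a1* result was not tested. Pituitary markers were 0.987 to 5.13 CPM in AgRP and 6.83 to 25.9 CPM in POMC libraries.

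*Nr5a2*, the liver receptor homologue of SF1, ran the other way and lies at chr1:136842571-136960448 on the minus strand. It stood at 40.6, 34.4 and 30.7 CPM in fed, 53.0, 37.7, 43.9 and 36.5 CPM in fasted and 56.6, 37.2, 48.0 and 34.3 CPM in leptin AgRP libraries. POMC libraries had 20.7 and 13.98, 17.1 and 10.4, and 21.1 and 10.7 CPM, all below the AgRP libraries. It was higher in AgRP neurons by 1.62 when fasted (SE 0.255, adjusted p = 0.0120) and by 1.47 after leptin (SE 0.323, adjusted p = 0.0483), with 1.02 when fed (adjusted p = 0.0742). The fasted call was kept without each library in turn, and the leptin call only without AgRP leptin replicate 4, with adjusted p up to 0.157. *Nr0b1* was higher in AgRP neurons by 1.74 when fed (SE 0.225, adjusted p = 0.0160) and by 1.65 after leptin (SE 0.322, adjusted p = 0.0320). Leaving out 1 library kept the fed call only without AgRP fed replicate 4 and the leptin call only without AgRP leptin replicate 4, with adjusted p up to 0.117 and 0.171. In fasted mice, where the AgRP level fell, it differed by 0.11 (adjusted p = 0.841) and the lines overlapped.

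Without AgRP replicate 4 and POMC replicate 2, 6, 11 and 6 receptors passed in fed, fasted and leptin libraries, beside 3.51%, 19.1% and 9.11% of all genes tested. Each of these fits sets AgRP libraries against 1 POMC library and takes the spread from the AgRP libraries. Those passing in fasted libraries then also held *Thrb* at -1.15, *Ppara* at -0.80, *Pgr* at -0.79 and *Rorb* at -0.68, the receptors that stood high in the libraries left out, and *Esrra* at 0.83, *Esrrb* at 1.39 and *Esrrg* at 1.21. Fed libraries gained *Nr1d2* at 1.03, *Nr5a1* at -1.07 and *Nr5a2* at 0.84. Leptin libraries gained *Thrb* at -0.95 and *Pgr* at -0.69, and lost *Nr0b1* (1.51, adjusted p = 0.0821). Leaving out AgRP fasted replicate 4 already gave 11 calls and AgRP leptin replicate 4 gave 8, while leaving out AgRP fed replicate 1 gave 0 in fed and POMC leptin replicate 1 gave 0 in leptin libraries.

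**Figure D4:**
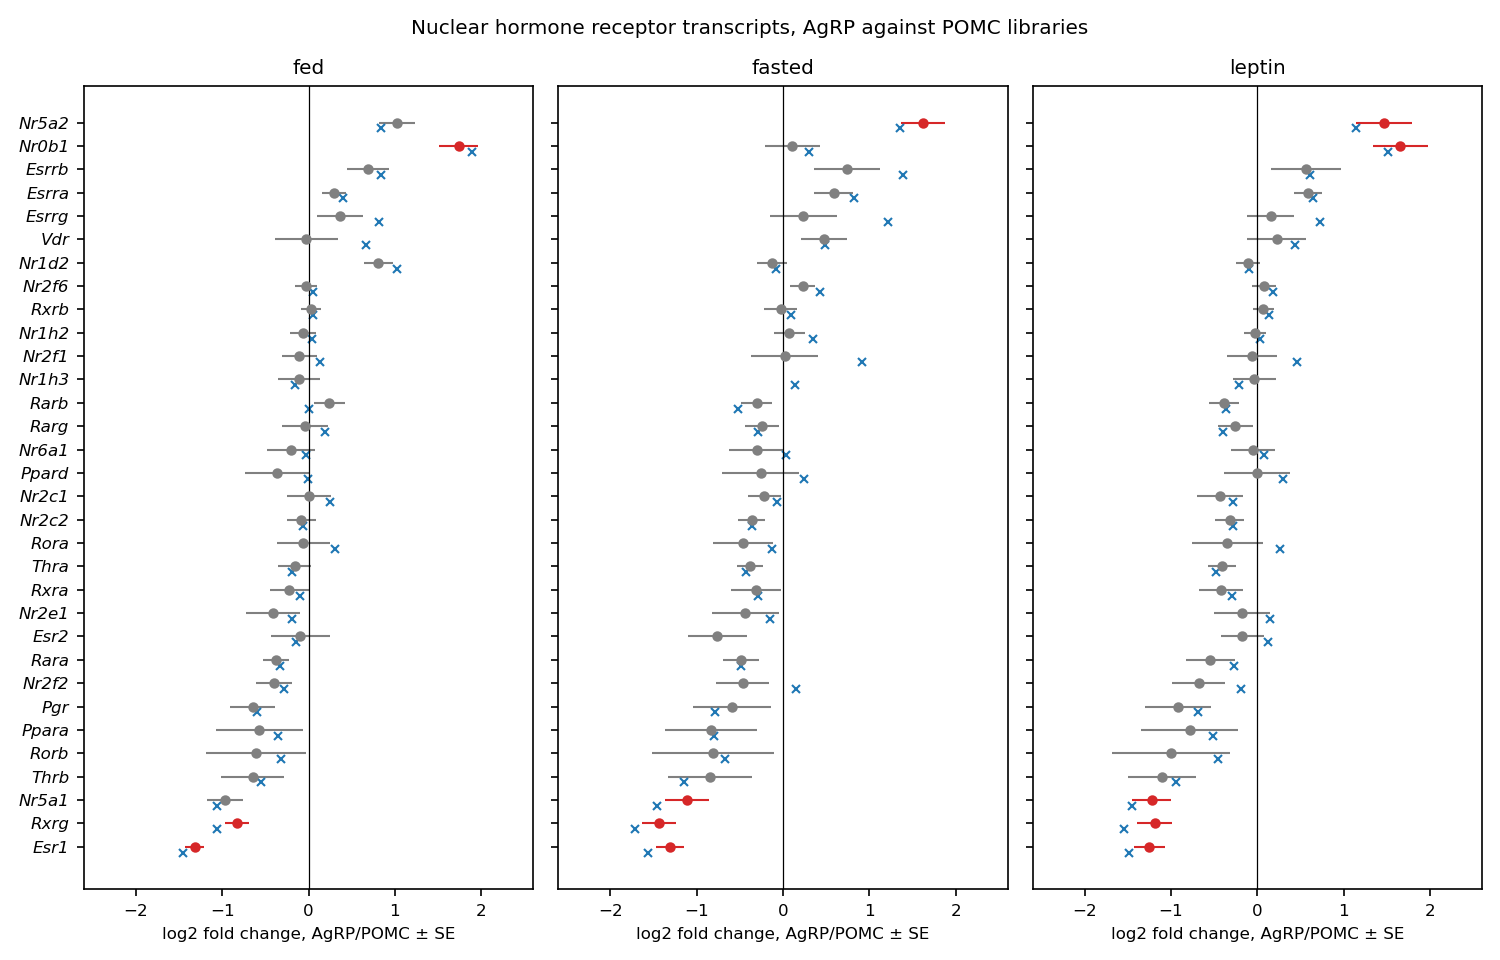
Log2 fold change ± SE (x axis) of receptors in AgRP against POMC neurons in fed, fasted and leptin libraries, with red for calls, grey for the rest and blue crosses for values without AgRP replicate 4 and POMC replicate 2. *Esr1* lies at -1.32, -1.31 and -1.25, and *Nr0b1* at 1.74, 0.11 and 1.65.

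Among coregulators, ligand supply, targets and other receptors, AgRP and POMC neurons differed most in *Rbp4*, at 2.71 to 3.77 CPM in POMC libraries. It was higher in AgRP neurons by 2.34 when fed, 4.12 when fasted and 3.75 after leptin. *Nr3c1*, the glucocorticoid receptor, was higher in AgRP neurons by 0.98 when fed (adjusted p = 0.0313) and by 0.87 when fasted (adjusted p = 0.0111). The rise of *Rdh10* with leptin was larger in AgRP than in POMC neurons by 2.43 (adjusted p = 0.00264), and the fasting effect on *Nfil3* by 1.75 (adjusted p = 0.0187).

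Open chromatin at receptor genes separated AgRP nuclei from their neighbours at *Esr1*, *Rora*, *Esrrg* and *Nr5a2*, among others, on the high side. On the low side it did so at *Nr2f1* and *Nr2f2*, among others. *Esrrb* also had 3 of 7 peaks higher and *Thra* 3 of 6 lower, while 0 of 2 *Nr2f6* peaks were called. A peak was assigned to a receptor when it lay in the gene body or within 5 kb upstream. Of 144 tested peaks at 32 receptor genes, 36 (25%) were higher and 26 (18.1%) lower in GFP-positive than in GFP-negative nuclei. Across all 66560 peaks tested 24.1% were higher and 15.3% lower, so the family as a whole was near the background. Among 49 peaks within 1 kb of a start, 4 were higher and 11 lower. The share among all peaks near a start was not computed, so these counts carry no result about the family. *Nr2e1* had no peak tested in either table.

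The window centres of the *Esr1* and *Nr2f1* peaks that moved far in each direction are shown so that the regions can be read beside their values. They lie on the plus strand of GRCm38 at chr10:4610319-4610618, upstream of *Esr1*, and at chr13:78194965-78195264, in an exon of *Nr2f1*, and neither holds AGGTCA, TTCNNNGAA or the repeat, so no letters are in capitals.
Esr1 upstream peak: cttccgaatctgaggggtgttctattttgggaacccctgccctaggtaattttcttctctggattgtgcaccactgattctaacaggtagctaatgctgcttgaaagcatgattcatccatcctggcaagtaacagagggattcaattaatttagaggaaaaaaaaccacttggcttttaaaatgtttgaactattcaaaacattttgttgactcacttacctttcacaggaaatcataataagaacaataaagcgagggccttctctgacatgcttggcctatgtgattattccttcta
Nr2f1 exon peak: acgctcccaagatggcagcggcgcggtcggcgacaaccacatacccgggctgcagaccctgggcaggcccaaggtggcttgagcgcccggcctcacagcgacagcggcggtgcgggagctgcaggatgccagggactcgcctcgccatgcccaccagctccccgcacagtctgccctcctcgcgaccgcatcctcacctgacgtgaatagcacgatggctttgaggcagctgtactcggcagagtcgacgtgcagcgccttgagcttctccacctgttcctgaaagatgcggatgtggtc

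The *Esr1* peak at chr10:4610234-4610704 held 1.72 and 1.42 CPM in GFP-negative and 18.9 and 19.9 CPM in GFP-positive nuclei, a log2 fold change of 3.62 (SE 0.314). Positive nuclei were far above negative ones although *Esr1* RNA was lower in AgRP than in POMC neurons, and GFP-negative nuclei are mixed cells rather than POMC neurons. Of 7 *Esr1* peaks, 3 were higher. At *Rora*, which encodes a clock activator that binds the same sites as REV-ERB proteins, the peak at chr9:69261506-69262221 rose from 1.97 and 1.66 CPM to 20.6 and 18.2 CPM (3.41, SE 0.306). At *Esrrg*, an orphan receptor of oxidative metabolism, the peak at chr1:187831326-187831780 rose from 1.11 and 0.592 CPM to 9.86 and 8.33 CPM (3.41, SE 0.428).

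*Esrrg* had 11 of 19 peaks higher, and *Rora* 8 higher and 3 lower of 22. All 6 *Nr5a2* peaks were higher, including its start peak at chr1:136948439-136949423 with 7.14 and 8.52 CPM in negative and 16.3 and 14.8 CPM in positive nuclei (0.99). *Nr5a1* went the other way at its start peak at chr2:38711979-38712335, with 4.43 and 2.604 CPM in negative and 0.711 and 0.750 CPM in positive nuclei (-2.25). At *Nr2f1*, a COUP transcription factor of neuronal patterning, all 4 peaks were lower, and the peak at chr13:78194918-78195312 fell from 7.51 and 6.98 CPM to 0.977 and 0.916 CPM (-2.92, SE 0.444). Both *Nr2f2* peaks were lower as well. At *Nr1d2* 0 of 3 peaks were called by edgeR, and the start peak held 175 and 147 CPM in negative and 177 and 155 CPM in positive nuclei.

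With fasting, the share of receptor gene peaks called higher was below that of all peaks, and the share called lower was near it. Peaks of the same gene may not be independent, so neither share carries a result about the family. Of 232 tested, 30 (12.9%) were higher and 17 (7.33%) lower in fasted than in fed AgRP nuclei, against 19% and 8.36% of all 102237 peaks. This balance rested on 1 library, since without fed nuclei replicate 2 there were 23 higher and 26 lower, and without other libraries the count of lower peaks was as small as 7. Within 1 kb of a start, 1 of 53 was higher and 2 were lower, again with no share computed for all peaks near a start. *Esr1* gained 4 of 19 peaks, a share near the 19% of all peaks, and lost 0. The peak at chr10:4974076-4974445 held 0.869 and 0.288 CPM in fed, 4.21 and 3.92 CPM in fasted and 1.60 and 1.28 CPM in leptin nuclei, with fasted above the rest (2.94, SE 0.539). *Esr1* RNA was not called in the same comparison. *Rarb* lost 4 of 12 peaks and gained 0, with log2 fold changes of -0.88, -1.67, -1.84 and -1.95. *Vdr* gained 2 of 6 peaks, where chr15:97878804-97879101 held 0.993 and 0.721 CPM in fed and 2.93 and 3.61 CPM in fasted nuclei (1.96, adjusted p = 0.0093). At *Nr0b1* the only tested peak was not called, at -0.81, and *Nr1d2* gained 2 of 6 peaks, at 1.69 and 1.79, while its RNA differed by -0.53 (adjusted p = 0.0557).

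*Nr6a1*, an orphan receptor of germ cells, lost a peak at chr2:38770300-38770715 that held 2.85 and 3.03 CPM in fed, 0.701 and 0.498 CPM in fasted and 0.694 and 1.17 CPM in leptin nuclei (-2.28, SE 0.540). Fed nuclei were above all others there. *Esrrg* had 6 peaks higher and 3 lower of 34, and *Rora* 5 higher and 2 lower of 37. AGGTCA stood in the 300-base centre of 6 of 30 higher peaks (20%), 6 of 17 lower peaks (35.3%) and 32 of 185 not called peaks (17.3%), where 18.1% of all peak centres in that table hold it. Fed nuclei replicate 1 was the shallowest library.

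Leptin against fasted called 2 receptor gene peaks higher and 0 lower of 232 by edgeR, against 1.44% and 0.306% of all peaks. Both are shown because they are the only receptor gene peaks called in that comparison. The windows lie on the plus strand of GRCm38 at chr14:16806121-16806420, in an intron of *Rarb*, and at chr9:69281437-69281736, in *Rora*. Capitals mark TTCNNNGAA in *Rarb*, which 12.4% of all peak centres in that table hold, and the *Rora* window holds none of the 3 motifs.
Rarb peak: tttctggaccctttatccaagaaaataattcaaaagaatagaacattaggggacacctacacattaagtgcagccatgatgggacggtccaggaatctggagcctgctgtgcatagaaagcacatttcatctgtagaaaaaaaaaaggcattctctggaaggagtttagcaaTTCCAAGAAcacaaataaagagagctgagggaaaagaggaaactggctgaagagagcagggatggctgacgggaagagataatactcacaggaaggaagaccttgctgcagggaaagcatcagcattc
Rora peak: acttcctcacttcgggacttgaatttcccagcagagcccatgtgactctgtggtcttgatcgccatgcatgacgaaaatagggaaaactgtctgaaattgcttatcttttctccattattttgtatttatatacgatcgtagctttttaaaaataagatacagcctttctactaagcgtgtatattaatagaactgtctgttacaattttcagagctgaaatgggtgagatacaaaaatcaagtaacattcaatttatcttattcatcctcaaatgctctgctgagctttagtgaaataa

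The *Rarb* peak at chr14:16805951-16806592 held 3.48 and 2.09 CPM in fed, 0.574 and 1.12 CPM in fasted and 5.69 and 3.24 CPM in leptin nuclei. Fasted nuclei were below all others, and the peak rose by 2.38 from fasted to leptin (SE 0.474, adjusted p = 0.0135), while *Rarb* RNA differed by -0.17 there without a call. The *Rora* peak at chr9:69281156-69282018 held 9.68 and 10.0 CPM in fed, 6.31 and 5.04 CPM in fasted and 14.2 and 13.2 CPM in leptin nuclei. Leptin nuclei were the highest and fasted the lowest, with a rise of 1.27 (SE 0.289, adjusted p = 0.0274). It overlaps a peak higher in GFP-positive nuclei, at 1.85 and 1.66 CPM in negative and 16.0 and 13.6 CPM in positive nuclei (3.07). Over 10 other settings the adjusted p ranged from 0.00414 to 0.271 for *Rarb* and from 0.00767 to 0.278 for *Rora*.

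**Figure D5:**
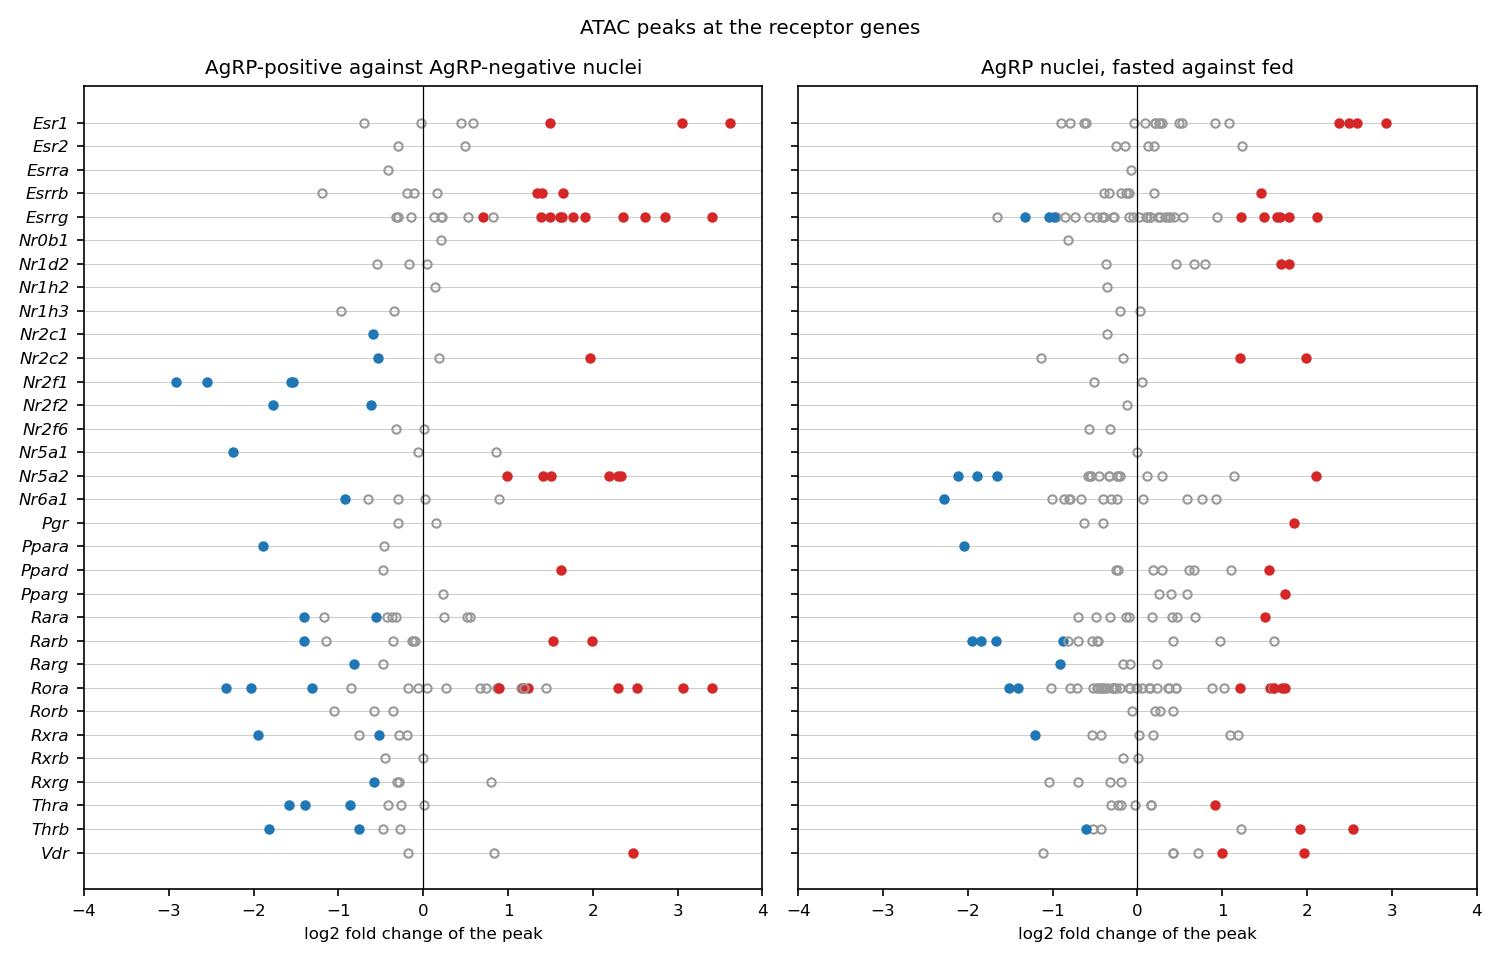
Log2 fold change of each tested peak (x axis) by receptor gene (y axis) for GFP-positive against GFP-negative nuclei (left) and fasted against fed AgRP nuclei (right), with red for higher, blue for lower and open points for peaks not called. All 6 *Nr5a2* points on the left are red and all 4 *Nr2f1* points are blue.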

How the data were processed

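Per the labels and the study's methods, the authors aligned RNA reads with HISAT2 and counted them with featureCounts on a GRCm38 annotation modified to reduce overlapping transcripts, and deposited raw counts per gene. ATAC reads were aligned to mm10 with Bowtie2, peaks were called with MACS2 and merged, and the deposited values are counts per peak made with bedtools. Libraries were made with Nextera XT, which keeps no strand. No column was left unmatched (0), and 12 whole-arcuate RNA samples were not analysed here, so 27 of 46 samples (17 RNA, 10 ATAC) were used.

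Counts were tested here with edgeR 4.0.16 (R 4.3.3) by the quasi-likelihood test after TMM scaling, on features with a mean above 1 CPM, with Benjamini-Hochberg adjustment over all features. A call needed an adjusted p under 0.05 and an absolute log2 fold change above 0.5, and SE is the log2 fold change over the square root of F. States within a line were fitted together, lines were compared within a state, and DESeq2 1.42.0, limma 3.58.1 and the other settings are in the closing section. P-values measure only the spread between these pooled samples, which may be technical.

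Residuals of same-numbered libraries correlated at 0.537 to 0.814 in AgRP RNA (10 pairs, other pairs -0.645 to 0.641) and 0.726 to 0.770 in POMC RNA (6 pairs). The replicate number was therefore taken as pairing RNA libraries from these data, since the labels do not say what it marks. Both sorts of nuclei came from the same pools by the study's account, but the labels do not say which libraries share a pool, so they were fitted without a block (62 receptor gene peaks called, 63 with a block on the number, r 0.0988). ATAC states were not paired (r -0.00228 to 0.165).

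All 33 receptors are named by role, with values in every library where a receptor was called with or without the block, and otherwise by range, and list genes by counts and their largest calls. The receptors and the gene lists were chosen with earlier results of these data known. Sequences were read with pysam 0.24.0 from GRCm38, promoters from RefSeq tables. The fits were tested on simulated data with known changes.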

Additional observations from a re-analysis of the deposited data

Results flagged for a closer look

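In AgRP groups of 4 libraries, the highest or lowest library was set apart from the others by Dixon's criterion (critical value 0.829) in 14 of 66 receptor groups, over 11 receptors, and in 12 of these the library was replicate 4. Chance alone would set apart about 1 in 20 groups, and the libraries are the same ones each time, so these are not independent.

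In fasted AgRP replicate 4, *Thrb* stood at 109 CPM (others 34.3 to 37.9), *Rxra* at 136 CPM (71.7 to 78.9), *Ppara* at 14.2 CPM (4.13 to 5.09), *Ppard* at 23.7 CPM (10.8 to 11.8), *Pgr* at 221 CPM (76.1 to 89.1) and *Rorb* at 457 CPM (98.2 to 119). In leptin AgRP replicate 4, *Rxra* stood at 115 CPM (68.6 to 74.7), *Ppara* at 16.3 CPM (4.95 to 6.401), *Rorb* at 398 CPM (96.9 to 146), *Rarg* at 3.38 CPM (2.55 to 2.65) and *Nr6a1* at 9.30 CPM (5.78 to 6.34). *Nr2f6* was low there, at 19.7 CPM against 24.0 to 24.8, and 54.4% of its exon bases are shared with *Ocel1*.

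Outside replicate 4, *Nr2f1* stood at 23.6 CPM in fasted replicate 2 (others 13.5 to 14.5), and *Nr0b1* at 2.32 CPM in fasted replicate 1 (others 1.26 to 1.42), still below every fed and leptin library.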

How the results depend on the processing

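Among AgRP states, fasted against fed gave 4 receptors called with DESeq2, 1 with scaling by library size only and 6 with the replicate block, in place of 2. Leptin against fasted gave 2, 0 and 2 under the same settings in place of 1, and leptin against fed gave 1 with library size only and 1 with no filter in place of 3. Between lines, fed libraries gave 6 with DESeq2, 6 with no filter, 9 when all 17 libraries were fitted with state as a covariate, 6 with limma's random replicate block (consensus correlation 0.562) and 6 without AgRP replicate 4 and POMC replicate 2, in place of 3. Fasted libraries gave 9 and 11 under the last joint fit and without those libraries in place of 4, and leptin libraries 9 under the joint fit in place of 5. The fasting interaction gave 2 with DESeq2 and 4 with the replicate block within line in place of 0, and the leptin interaction 1 with that block in place of 0. The block changed no call among POMC states. Settings that leave out replicate 4 or replicate 2 altogether were chosen after seeing the data.

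Restricting to peaks within 1 kb of a start gave 15 called in place of 62 between sorts, 3 in place of 47 for fasted against fed and 0 in place of 2 for leptin against fasted. The last gave 4 with library size only, 4 with no filter and 6 with the replicate block.

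Leaving out 1 library at a time gave 1 to 3 receptors for AgRP fasted against fed, 0 to 2 for leptin against fasted, 0 to 3 for leptin against fed, 0 to 0 in every POMC comparison and both interactions, 0 to 2, 2 to 11 and 0 to 8 between lines in fed, fasted and leptin libraries, and 50 to 56, 25 to 49 and 0 to 7 peaks in the 3 peak comparisons. No named receptor or peak changed sign, but the called fasting peaks turned from 30 higher and 17 lower to 23 higher and 26 lower without fed nuclei replicate 2. Over all genes tested, AgRP fasted against fed called 521, with 660 by DESeq2, 937 with the block and 237 with library size only. The fed lines differed in 293 genes, with 655 by DESeq2 and 1824 in the joint fit, and the fasted lines in 965, with 1680 by DESeq2 and 2563 without the libraries that stood apart. The leptin lines differed in 628 genes, with 1278 by DESeq2 and 1222 without those libraries. The fasting interaction called 21 genes, with 165 by DESeq2 and 837 with the block, and the leptin interaction 10, with 39 and 107. Except for fewer peaks or libraries entering a fit, the cause was not tested. POMC states without replicate 2 could not be fitted, having no residual degrees of freedom. Counts under 200 per library limit *Vdr* and *Nr0b1* in AgRP neurons, and 2 ATAC libraries per group limit the peaks.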
